A study of Rattus norvegicus with 12 samples.

Results

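The 10 genes described here belong to the oxidant defence of the cell: Nfe2l2, which encodes the transcription factor NRF2, its inhibitor Keap1, the NRF2 targets Hmox1, Gclc, Gclm, Txnrd1, Srxn1 and Slc7a11, the mitochondrial superoxide dismutase Sod2, and Nox4, an enzyme that makes hydrogen peroxide. They were taken by symbol, as a list of NRF2, its targets and Nox4, and all 10 were among the 14601 genes that passed the filter on low counts, out of 43360 genes counted. They were measured by poly(A) RNA sequencing in NRK-49F, a fibroblast line from rat kidney, transfected with an empty vector (pcDNA3.1) or with a plasmid for human HDAC1 with a Flag tag. HDAC1 is an enzyme that takes acetyl groups off histones. Each kind of cell was kept for 24 hours in medium with 0.5% FBS, either alone (vehicle) or with TGFB1 at 2 ng/ml, which gave 4 groups of 3 libraries. All cells carried a vector, and the labels do not say whether the cells were a clone or a pool, nor whether the replicates were separate cultures, so the p-values measure only the spread between these libraries.

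NRF2 is a transcription factor that KEAP1 holds in the cytosol and hands to a CUL3 ubiquitin ligase for breakdown. Oxidants and electrophiles modify KEAP1, NRF2 escapes to the nucleus, pairs with small MAF proteins at antioxidant response elements and switches on genes for glutathione, thioredoxin and haem breakdown. Its regulation lies largely in the protein, so mRNA levels of Nfe2l2 and Keap1 do not measure NRF2 activity. In kidney fibroblasts, TGFB1 is a classical inducer of NOX4, whose peroxide takes part in the signalling that turns fibroblasts into myofibroblasts.

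Library totals ran from 18397093 to 36652084 counts. Levels are CPM, counts relative to library size after TMM scaling, and are compared between groups for 1 gene at a time, since they are not corrected for gene length. Differences are log2 fold changes from the quasi-likelihood test of edgeR, fitted to the 12 libraries and adjusted over 14601 genes, and a gene is called changed at an adjusted p under 0.05. The plasmid was visible in the counts: Hdac1 was at 204.9 to 212 CPM with the empty vector and 375 to 460.4 CPM with the plasmid in vehicle, and at 250.2 to 290.4 and 416 to 501 CPM with TGFB1. Its copy Hdac1l was at 0.53 to 15.1 CPM with the empty vector and 802 to 1367 CPM with the plasmid. How reads of the human sequence were divided between these genes is not given in the sources used here. Of 10 fibroblast markers, 8 were tested, and they summed to 11200 to 12885 CPM with the empty vector and 8968 to 10493 CPM with HDAC1 in vehicle, and to 13922 to 16893 and 11858 to 13963 CPM with TGFB1, with collagens (Col1a1, Col1a2), Vim and S100a4 high and Dcn near 0 (0.16 to 0.86 CPM). Of 9 epithelial and tubule markers 2 were tested, Krt8 at 1144 to 1758 CPM and Slc34a1 at 0.37 to 1.21 CPM. Of 6 leukocyte markers 2 were tested and summed to at most 10.6 CPM, and of 5 endothelial markers 4 were tested and summed to at most 5.31 CPM. Transcripts of heart (21 of 21 tested) summed to 69.6 CPM in one library, replicate 1 of vehicle with empty vector. They summed to 145.8 to 164 CPM where HDAC1 and TGFB1 were combined (3 libraries) and to 235.7 to 551 CPM in the other 8. Transcripts of brain (18 of 20 tested) were at 18.1, 41.2 to 43.5 and 68.3 to 120.3 CPM in the same sets of libraries. Calls that ended without the first of these libraries, or with the summed heart and brain level in the fit, are given below with their values.

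TGFB1 changed most of the genes, and in both directions. With the empty vector 3 rose (Nox4, Gclc and Txnrd1), 5 fell (Nfe2l2, Keap1, Hmox1, Slc7a11 and Sod2) and Gclm and Srxn1 were not called. Those 8 of 10 called stand beside 50.9% of all genes tested, of which TGFB1 called 25.9% higher and 25.0% lower. In the HDAC1 cells the same 3 rose and the same 5 fell, 8 of 10 beside 49.1% of all genes (24.9% higher and 24.2% lower). The median log2 fold change of the 10 genes was -0.17 for the empty vector and -0.23 for HDAC1, beside 0.01 and -0.02 over all genes. These responses come from separate libraries and share no controls. With replicate 1 of the empty vector vehicle group left out 8 of 10 were called for the empty vector, and 6633 of all genes against 7429. With the heart and brain level in the fit 7 of 10 were called there and 8 of 10 for HDAC1. The shares of all genes in that fit are not given here. Cell type markers moved in the same comparisons: of 8 fibroblast markers TGFB1 raised 3 and lowered 2 with the empty vector (Col3a1 1.65 and Pdgfra -1.003 on the log2 scale) and raised 3 and lowered 3 with HDAC1 (Col3a1 1.51 and Pdgfra -0.76), and the macrophage marker Cd68 fell 2.83-fold and 2.51-fold. Their part in the results for the 10 genes was not tested. In bulk RNA a smaller number of expressing cells and less RNA per cell cannot be told apart. Between the groups compared, 9 of 10 genes did not overlap with the empty vector and 7 of 10 with HDAC1, beside 56.0% and 60.7% of all genes.

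**Figure D1:**
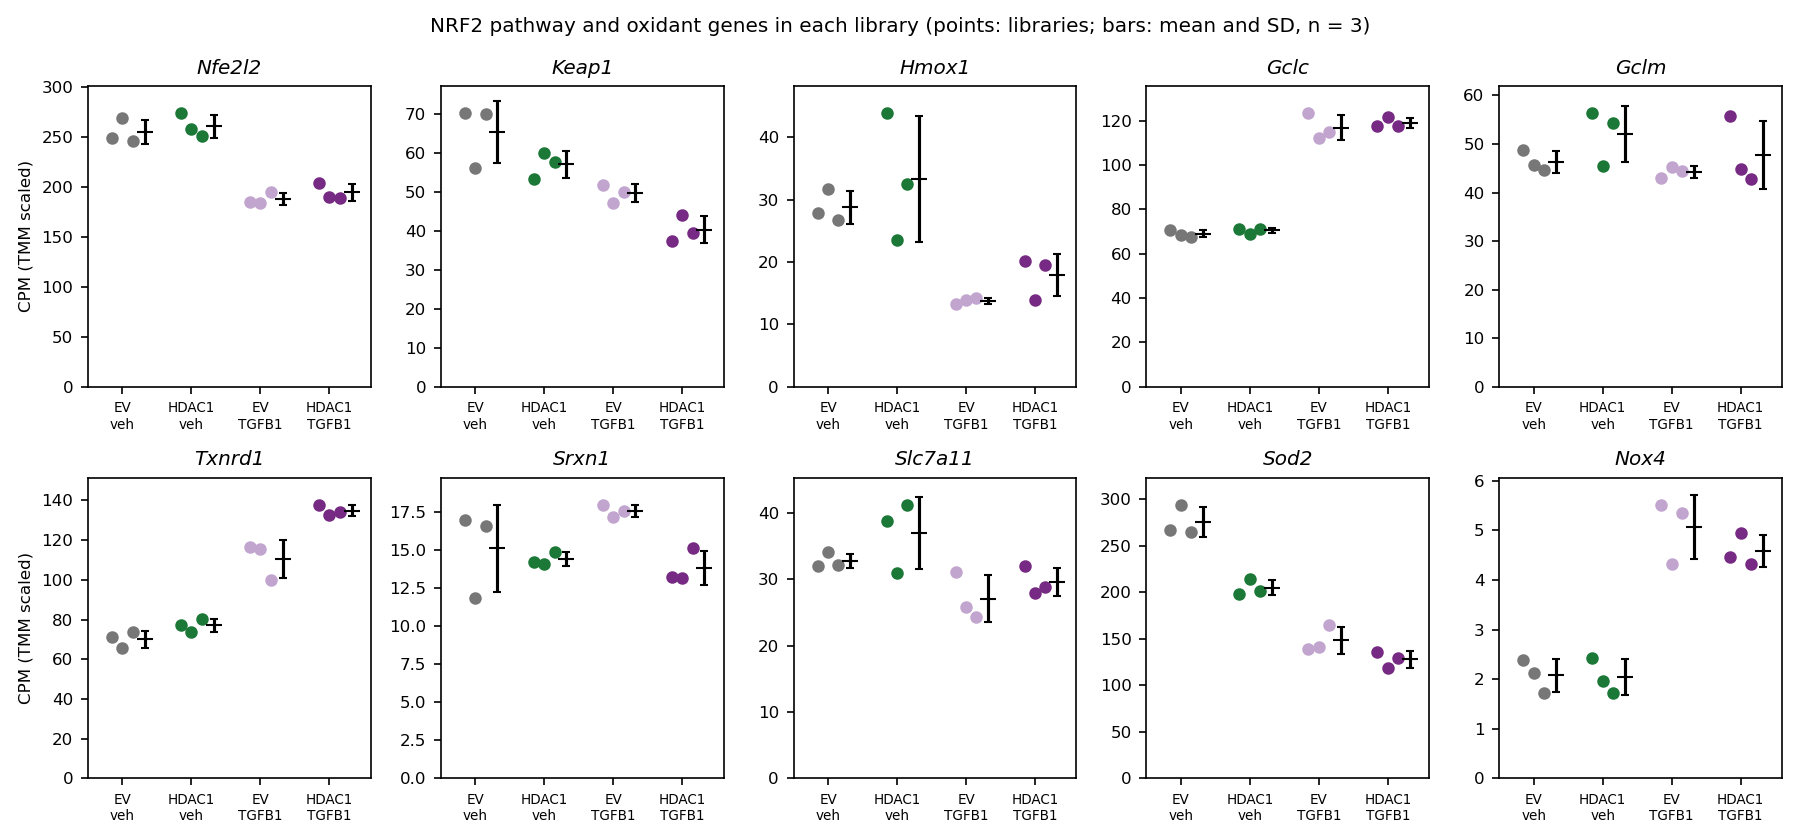
CPM of the 10 genes (y axis, from 0) in each library of the 4 groups (EV, empty vector; veh, vehicle). Points are libraries in the order of their replicate numbers, and bars give the mean and SD of 3 libraries. Gclc, Txnrd1 and Nox4 are high, and Nfe2l2 and Sod2 low, in the TGFB1 groups.

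Nfe2l2 (ENSRNOG00000001548), the gene of NRF2 itself, was at 249.7, 269 and 247 CPM in the empty vector vehicle libraries and at 185, 184 and 195 CPM with TGFB1. It was at 274, 258 and 251 CPM with HDAC1 in vehicle and at 204, 189.9 and 189.6 CPM with HDAC1 and TGFB1. All TGFB1 libraries lay below all vehicle libraries, and the replicates lay close together. TGFB1 lowered it to 0.737 of the vehicle level with the empty vector (-0.44 ± 0.06 on the log2 scale, value ± SE, with an edgeR adjusted p of 3.73e-06) and to 0.745 with HDAC1 (-0.42 ± 0.06, edgeR adjusted p = 7.28e-06).

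Keap1 (ENSRNOG00000020878), the sensor that restrains NRF2, was at 70.2, 56.3 and 69.9 CPM with the empty vector in vehicle and at 51.9, 47.2 and 50.1 CPM with TGFB1. It was at 53.4, 60.1 and 57.7 CPM with HDAC1 in vehicle and at 37.5, 44.1 and 39.4 CPM with both. With either vector the TGFB1 libraries lay below the vehicle libraries, although replicate 2 of the empty vector vehicle group was low. TGFB1 lowered Keap1 by a log2 fold change of -0.40 ± 0.09 SE with the empty vector (edgeR adjusted p = 0.000510) and of -0.50 ± 0.09 with HDAC1 (6.59e-05). Both genes fell, and between vehicle and TGFB1 their ratio did not differ beyond the replicate spread. The log2 ratio of Nfe2l2 to Keap1 in a library was 1.97 ± 0.25 (SD, n = 3) in vehicle and 1.92 ± 0.07 with TGFB1 for the empty vector, a difference of -0.05 (exact two-sided permutation p = 1). For HDAC1 it was 2.19 ± 0.14 and 2.27 ± 0.17, a difference of 0.08 (exact permutation p = 0.6). Between the vectors the ratio was higher with HDAC1 by 0.22 in vehicle (exact permutation p = 0.3) and by 0.35 with TGFB1 (0.1). This ratio and the other ratios below were chosen after the values were seen. With 3 libraries against 3 the exact test cannot go under 0.1, and adjusted over the 12 ratio comparisons no p is below 0.2.

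Glutathione, the main small antioxidant of the cell, is made by glutamate-cysteine ligase, an enzyme of the catalytic subunit GCLC and the modifier subunit GCLM, and both genes are NRF2 targets in textbooks. The windows before their starts are shown because Gclc was called for TGFB1 and Gclm was not, and that of Txnrd1 because it was called in the same direction as Gclc. The windows below hold the 250 bases before the annotated start on the coding strand (RefSeq, GRCr8), which is not stated to be the build of the count table. They are chr8:87510226-87510475 (plus strand) for Gclc and chr2:213031885-213032134 (plus strand) for Gclm. Txnrd1 has 2 annotated starts, and the window shown is that of the downstream start, chr7:22755905-22756154 (minus strand). Capitals mark a match to the core of the antioxidant response element, TGACNNNGC, on either strand.
Gclc: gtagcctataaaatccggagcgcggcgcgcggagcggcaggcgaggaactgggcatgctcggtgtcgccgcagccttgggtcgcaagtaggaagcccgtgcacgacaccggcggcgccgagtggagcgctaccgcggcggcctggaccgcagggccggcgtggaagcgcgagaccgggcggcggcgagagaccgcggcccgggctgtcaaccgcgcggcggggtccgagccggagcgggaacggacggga
Gclm: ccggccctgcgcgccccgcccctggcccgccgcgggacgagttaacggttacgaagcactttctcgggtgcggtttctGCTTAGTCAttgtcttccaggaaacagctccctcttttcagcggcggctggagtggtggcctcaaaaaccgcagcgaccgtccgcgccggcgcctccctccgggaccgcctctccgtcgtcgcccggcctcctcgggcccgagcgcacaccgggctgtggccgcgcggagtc
Txnrd1: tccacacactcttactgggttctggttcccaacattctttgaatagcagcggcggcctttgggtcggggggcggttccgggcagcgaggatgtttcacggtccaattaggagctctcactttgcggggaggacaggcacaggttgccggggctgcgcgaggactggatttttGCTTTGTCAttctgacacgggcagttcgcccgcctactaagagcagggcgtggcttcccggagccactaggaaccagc
The matches lie on the opposite strand, 172 bases before the start in Gclm, where it reads TGACTAAGC, and 78 bases before it in Txnrd1, where it reads TGACAAAGC. The window of the upstream start of Txnrd1, chr7:22764852-22765101, held no match. Of the 10 genes, 9 had a window, and 3 of these held the core in a window (Gclm, Sod2 and, at 1 of its 2 starts, Txnrd1). Over all genes the core was in 10.1% of 33469 windows of the same length. The AP-1 site TGANTCA, which can overlap the element, was found in the window of Srxn1 (TGAGTCA, 62 bases before the start) and in 6.34% of all windows. These matches describe letters, not binding. Bases outside the windows were not searched, so a window without a match does not show that a gene lacks the element.

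Gclc (ENSRNOG00000006302) was at 70.8, 68.5 and 67.7 CPM with the empty vector in vehicle and at 123, 112 and 115 CPM with TGFB1. The HDAC1 libraries were at 71.4, 69.1 and 71.0 CPM in vehicle and at 118, 122 and 117 CPM with TGFB1. The 6 TGFB1 libraries lay far above the 6 vehicle libraries, and within each group the SD was at most 4.90% of the mean. The rise was 1.69-fold with either vector (0.76 ± 0.06 and 0.75 ± 0.06 on the log2 scale, edgeR adjusted p = 9.90e-10 and 1.10e-09).

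Gclm (ENSRNOG00000013409), the gene of the modifier subunit, was not called. It was at 48.8, 45.6 and 44.6 CPM with the empty vector in vehicle and at 43.0, 45.3 and 44.4 CPM with TGFB1, and the groups overlapped. In HDAC1 cells the values were at 56.3, 45.4 and 54.2 CPM in vehicle and at 55.7, 44.9 and 42.7 CPM with TGFB1. The log2 fold change by TGFB1 was -0.07 with the empty vector (95% interval -0.26 to 0.13, edgeR adjusted p = 0.581) and -0.13 with HDAC1 (-0.32 to 0.06, 0.258). With HDAC1 it was called lower in 2 of 13 alternatives, over which its log2 fold change ran from -0.28 to -0.06. With the empty vector it was called in 0 of 13. Within a library the log2 ratio of Gclc to Gclm went from 0.58 ± 0.03 (SD, n = 3) to 1.40 ± 0.11 with the empty vector and from 0.45 ± 0.14 to 1.33 ± 0.21 with HDAC1. These are 1.77-fold and 1.84-fold shifts between the subunits, and for each vector all 3 TGFB1 libraries lay above all 3 vehicle libraries (exact permutation p = 0.1, the smallest possible). Between the vectors this ratio differed by -0.13 in vehicle and -0.07 with TGFB1 (exact permutation p = 0.4 and 0.8).

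Slc7a11 (ENSRNOG00000010210), the light chain of the cystine importer that feeds glutathione synthesis, was at 32.1, 34.1 and 32.2 CPM with the empty vector in vehicle and at 31.1, 25.8 and 24.4 CPM with TGFB1. With HDAC1 it was at 38.9, 30.9 and 41.3 CPM in vehicle and at 32.1, 28.0 and 28.8 CPM with TGFB1, where the groups overlapped. It fell by 0.27 on the log2 scale with the empty vector (edgeR adjusted p = 0.0336) and by 0.33 with HDAC1 (edgeR adjusted p = 0.0114), the smallest changes among the 8 called genes. The call with the empty vector ended in 5 of 13 alternatives (log2 fold changes -0.24 and -0.28 without replicates 2 and 3 of the vehicle group, -0.24 and -0.23 without replicates 2 and 3 of the TGFB1 group, and -0.27 with the heart and brain level in the fit). With HDAC1 it ended without vehicle replicate 1 (-0.28) or 3 (-0.24).

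Txnrd1 (ENSRNOG00000009088) encodes the cytosolic thioredoxin reductase, which recycles thioredoxin with NADPH. It was at 71.0, 65.4 and 73.8 CPM with the empty vector in vehicle and at 117, 115 and 99.7 CPM with TGFB1. The HDAC1 libraries were at 77.1, 73.6 and 80.5 CPM in vehicle and at 138, 132 and 134 CPM with TGFB1, the highest libraries of all. The rise by TGFB1 was 1.58-fold with the empty vector (0.66 ± 0.07 on the log2 scale, edgeR adjusted p = 9.32e-08) and 1.75-fold with HDAC1 (0.81 ± 0.07, 4.74e-09).

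Srxn1 (ENSRNOG00000031167) encodes sulfiredoxin, which repairs overoxidised peroxiredoxins, and was not called for TGFB1. It was at 16.9, 11.8 and 16.5 CPM with the empty vector in vehicle and at 17.9, 17.2 and 17.5 CPM with TGFB1. In HDAC1 cells the values were at 14.2, 14.0 and 14.9 CPM in vehicle and at 13.2, 13.2 and 15.1 CPM with TGFB1. The empty vector groups did not overlap, but the log2 fold change was 0.21 (95% interval -0.02 to 0.44, edgeR adjusted p = 0.125), and with HDAC1 it was -0.06 (-0.29 to 0.18, 0.704). The log2 ratio of Txnrd1 to Srxn1 in a library went from 2.23 ± 0.21 (SD, n = 3) to 2.65 ± 0.13 with TGFB1 and the empty vector, and from 2.42 ± 0.03 to 3.29 ± 0.12 with HDAC1 (exact permutation p = 0.1 for each, the smallest possible). Between the vectors it was higher with HDAC1 by 0.19 in vehicle (exact permutation p = 0.4) and by 0.64 with TGFB1 (0.1).

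**Figure D2:**
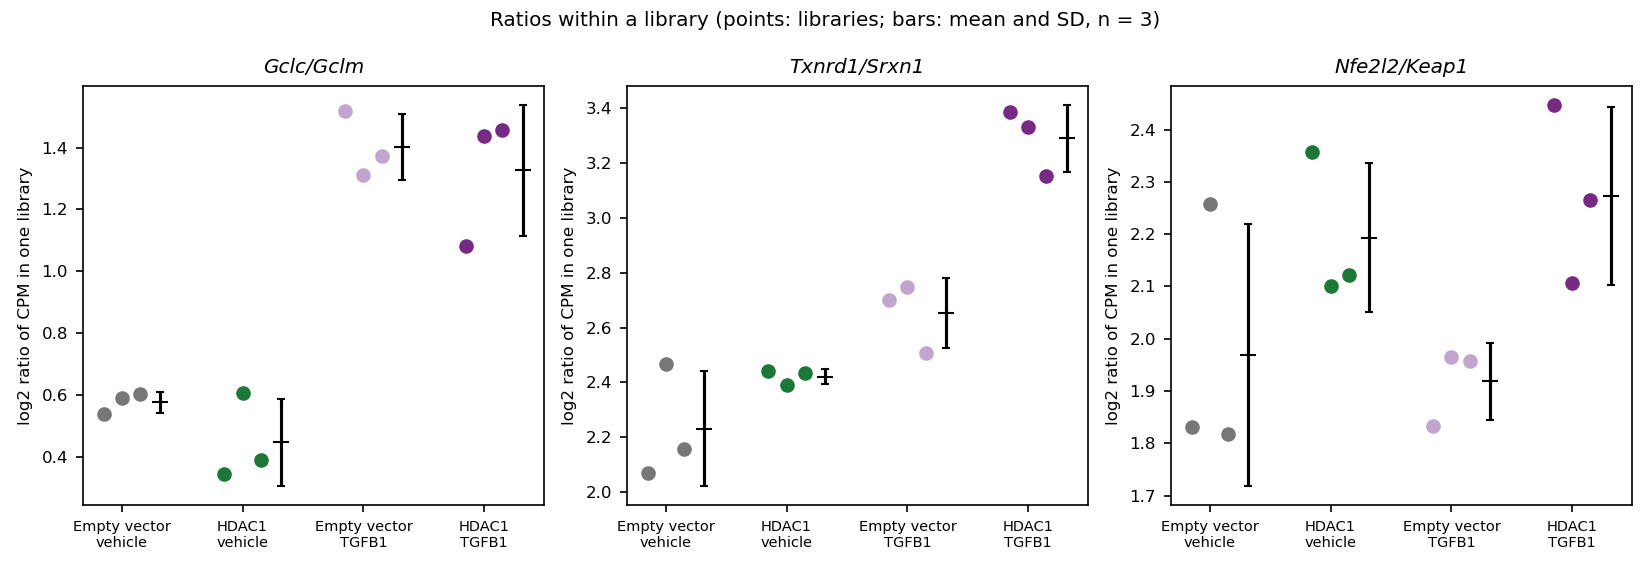
Log2 ratio of the CPM of paired genes within each library (y axis, not from 0) in the 4 groups, with points for libraries and bars for the mean and SD of 3. Gclc to Gclm is higher in all TGFB1 libraries (1.08 to 1.52) than in all vehicle libraries (0.34 to 0.61), while Nfe2l2 to Keap1 overlaps between vehicle and TGFB1 for each vector.

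Hmox1 (ENSRNOG00000014117) encodes haem oxygenase 1, the inducible enzyme that breaks down haem, and had the largest fall of the 10 genes. It was at 27.8, 31.7 and 26.7 CPM with the empty vector in vehicle and at 13.2, 13.8 and 14.2 CPM with TGFB1. With HDAC1 it was at 43.8, 23.6 and 32.5 CPM in vehicle and at 20.2, 14.0 and 19.5 CPM with TGFB1. TGFB1 lowered it 2.08-fold with the empty vector (-1.06 ± 0.21 on the log2 scale, edgeR adjusted p = 0.00119) and 1.88-fold with HDAC1 (-0.91 ± 0.20, 0.00274). The second call ended in a fit to those 2 groups alone (-0.92, edgeR adjusted p = 0.0573). The HDAC1 libraries were the most spread, with an SD of 30.5% of the mean in vehicle and 19.1% with TGFB1, against 9.19% and 3.81% with the empty vector. In both HDAC1 groups replicate 2 was the lowest library for Hmox1, for Slc7a11, for Hdac1 and for Hdac1l (852 CPM beside 1297 and 1367 in vehicle, 802 CPM beside 1211 and 1257 with TGFB1). The part of the plasmid's level in this spread was not tested.

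Sod2 (ENSRNOG00000086727) encodes manganese superoxide dismutase, which turns superoxide into peroxide in mitochondria. It was at 267, 294 and 265 CPM with the empty vector in vehicle and at 139, 141 and 165 CPM with TGFB1. The HDAC1 libraries were at 199, 214 and 202 CPM in vehicle and at 136, 118 and 129 CPM with TGFB1. No library of one group reached into another, and from high to low the groups ran from empty vector to HDAC1 in vehicle, then from empty vector to HDAC1 under TGFB1. TGFB1 lowered Sod2 1.85-fold with the empty vector (-0.89 ± 0.07 on the log2 scale, edgeR adjusted p = 2.42e-09) and 1.60-fold with HDAC1 (-0.68 ± 0.07, 1.53e-07).

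Nox4 (ENSRNOG00000013925) was scarce, with 40 to 127 counts in a library, and had the largest rise. It was at 2.39, 2.12 and 1.72 CPM with the empty vector in vehicle and at 5.51, 4.32 and 5.36 CPM with TGFB1. In HDAC1 cells the values were at 2.43, 1.97 and 1.71 CPM in vehicle and at 4.47, 4.94 and 4.33 CPM with TGFB1. All TGFB1 libraries lay above all vehicle libraries, and the rise was 2.45-fold with the empty vector (1.29 ± 0.19 on the log2 scale, edgeR adjusted p = 8.03e-06) and 2.23-fold with HDAC1 (1.15 ± 0.19, 2.95e-05).

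**Figure D3:**
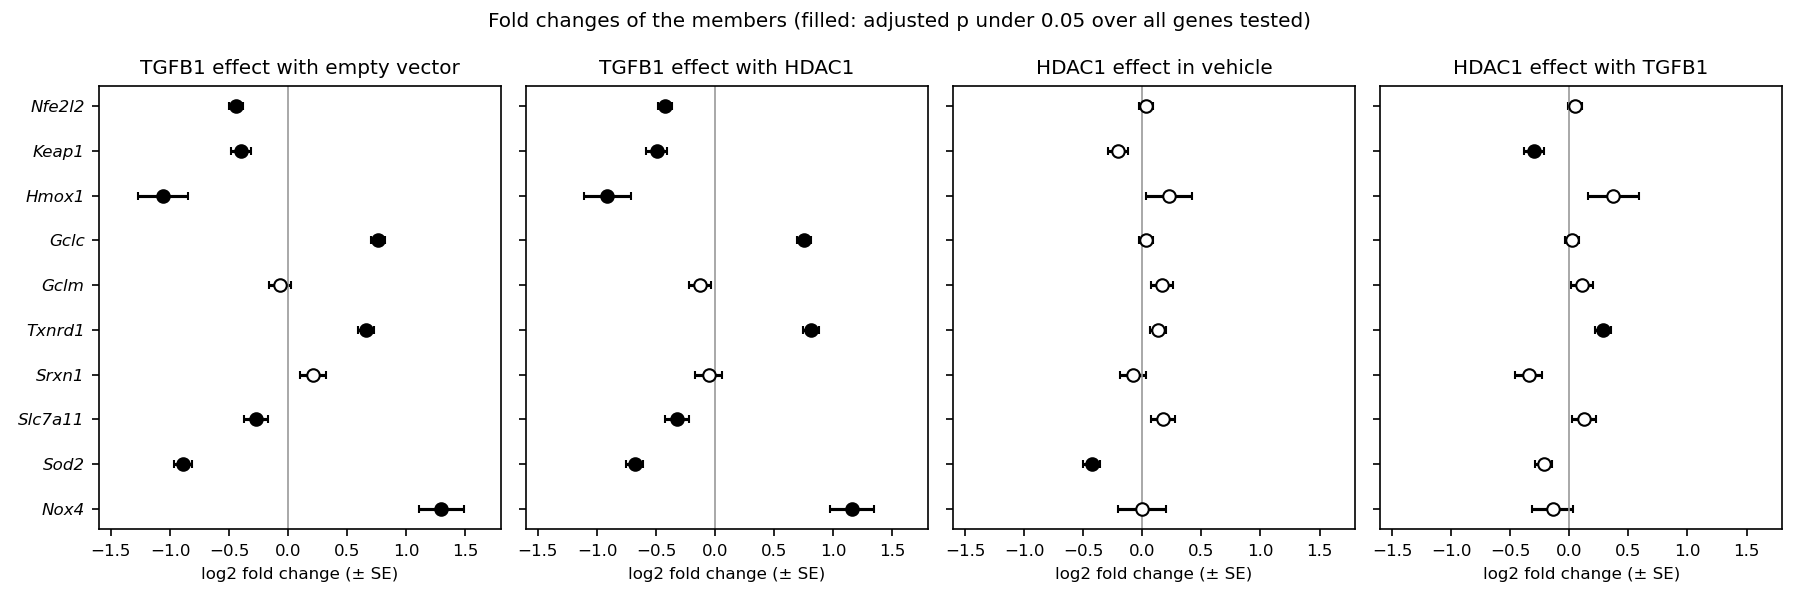
Log2 fold changes of the 10 genes (x axis, with the SE as bars) in the 4 comparisons, where filled points passed an adjusted p of 0.05 over all genes. The TGFB1 panels range from -1.06 for Hmox1 to 1.29 for Nox4, and the HDAC1 panels from -0.43 for Sod2 to 0.37 for Hmox1.

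Fewer genes were called for HDAC1 than for TGFB1, both among the 10 and over all genes. In vehicle 1 of 10 was called, Sod2, which was lower, beside 14.0% of all genes (6.64% higher and 7.32% lower), and with TGFB1 2 of 10 were called, Txnrd1 higher and Keap1 lower, beside 6.53% of all genes (2.17% higher and 4.36% lower). The medians of the 10 genes were 0.03 and 0.04 on the log2 scale, beside -0.01 and 0.00 over all genes. Groups did not overlap for 1 gene in vehicle and for 4 with TGFB1 (Sod2, Srxn1, Txnrd1 and Keap1), beside 32.5% and 28.8% of all genes. No gene of the 10 was called in both treatments. Markers moved here too: of 8 fibroblast markers HDAC1 raised 1 and lowered 4 in vehicle (Pdgfrb -0.81, Col1a1 -0.62, Col1a2 -0.54 and Pdgfra -0.27 on the log2 scale) and lowered 2 with TGFB1 (Pdgfrb and Col1a2, -0.45 for each). Krt8, a keratin, rose by 0.36 and 0.26. In vehicle Cd68 fell by 0.75, while Csf1r, the other leukocyte marker tested, stood at 0.45 and was not called. The part of these markers in the HDAC1 results was not tested.

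Sod2 fell by 0.43 ± 0.07 (SE) on the log2 scale with HDAC1 in vehicle, to 0.744 of the empty vector level (edgeR adjusted p = 0.000415), and was called in 13 of 13 alternatives. With TGFB1 its 3 HDAC1 libraries again lay below the 3 empty vector libraries, at a log2 fold change of -0.22 (95% interval -0.37 to -0.06, edgeR adjusted p = 0.0780), which was not called.

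Txnrd1 rose 1.22-fold with HDAC1 in the presence of TGFB1 (0.29 ± 0.07 on the log2 scale, edgeR adjusted p = 0.0165). In vehicle its change was 0.14 (95% interval -0.01 to 0.28, edgeR adjusted p = 0.218). The call with TGFB1 ended in 4 of 13 alternatives, without empty vector replicate 3 (0.22), without HDAC1 replicate 1 (0.27) or 3 (0.29), and with the heart and brain level in the fit (0.26, edgeR adjusted p = 0.276).

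Keap1 fell by 0.30 ± 0.09 (SE) on the log2 scale with HDAC1 and TGFB1 (edgeR adjusted p = 0.0437) and stood at -0.20 in vehicle (95% interval -0.38 to -0.03, edgeR adjusted p = 0.120). The call lies close to the threshold and ended in 7 of 13 alternatives, with log2 fold changes from -0.37 to -0.25 over the 13 and adjusted p of at most 0.218. It was lost without empty vector replicate 1 (-0.27) or 3 (-0.29) and without HDAC1 replicate 1 (-0.25) or 3 (-0.28). With the heart and brain level in the fit it was lost at -0.35 (edgeR adjusted p = 0.218). Under TGFB1 the heart transcripts summed to 145.8 to 164.3 CPM with HDAC1 and to 431.8 to 550.8 CPM with the empty vector. Their level thus runs with the vector in this comparison, and the fit cannot tell their part from that of HDAC1. The part of these transcripts in the calls for Keap1 and Txnrd1 was not tested in any other way.

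The other genes were not called for HDAC1, and their intervals bound what could have been missed. For Nfe2l2 the log2 fold change was 0.03 in vehicle (95% interval -0.09 to 0.16) and 0.05 with TGFB1 (-0.08 to 0.18), and for Gclc it was 0.03 (-0.09 to 0.15) and 0.03 (-0.09 to 0.15). Hmox1 was the least certain, at 0.22 (-0.20 to 0.65) and 0.37 (-0.10 to 0.85), and in vehicle it moved to -0.02 without HDAC1 replicate 1 and to 0.42 without replicate 2. For 9 of the 10 genes in each treatment the interval lay within a 1.5-fold change either way, and Hmox1 was the exception. Srxn1 with TGFB1 was lower in all 3 HDAC1 libraries (13.2, 13.2 and 15.1 CPM, against 17.9, 17.2 and 17.5 CPM), at -0.34 (-0.58 to -0.11, edgeR adjusted p = 0.0707). Nox4 was at 0.00 (-0.43 to 0.42) in vehicle and -0.14 (-0.51 to 0.23) with TGFB1.

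Whether the HDAC1 effect differed between treatments was tested as an interaction. It called 0 of the 10 genes by edgeR, 0 at an unadjusted p under 0.05 and 0 by DESeq2, beside 0.479% of all genes. The largest estimates were -0.27 for Srxn1 (95% interval -0.59 to 0.06, edgeR adjusted p = 0.505) and 0.21 for Sod2 (-0.01 to 0.42, 0.400). The same term tests whether TGFB1 acted differently in the HDAC1 cells, so the TGFB1 values of Srxn1 (0.21 and -0.06) are not shown to differ.

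Of 13 regulators and partners of NRF2 10 were tested. With the empty vector 2 rose and 3 fell by TGFB1, and with HDAC1 3 rose and 3 fell, of which 2 rose and 3 fell in both. The 5 of 10 and 6 of 10 called stand beside 50.9% and 49.1% of all genes, so neither is far from that share. Bach1, a repressor that competes with NRF2 for its elements, went from 60.8 ± 0.24 to 79.8 ± 7.20 CPM (SD, n = 3) in empty vector cells (log2 fold change 0.39) and rose by 0.51 with HDAC1. Cul3, the scaffold of the ligase that marks NRF2, rose by 0.31 and 0.40. Sqstm1, which encodes p62, a protein that sequesters KEAP1 and is itself an NRF2 target, went from 346 ± 27.1 to 249.2 ± 9.99 CPM (-0.47) and fell by 0.48 with HDAC1. Maff, a small MAF partner, fell by 0.43 and 0.45. HDAC1 called 1 of these 10 genes, Gsk3b with TGFB1, a kinase that marks NRF2 for breakdown (0.29 ± 0.08 SE, edgeR adjusted p = 0.0413), beside 6.53% of all genes. That call was lost at 0.28 with the heart and brain level in the fit and at 0.29 in a fit to those 2 groups. It was also lost at 0.25 and 0.21 without empty vector replicates 1 and 3, and at 0.26, 0.31 and 0.28 without HDAC1 replicates 1, 2 and 3.

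Other NRF2 target genes were mostly lower with TGFB1. Of 25 listed 23 were tested, and 3 rose and 12 fell with the empty vector (median log2 fold change -0.23), and 2 rose and 14 fell with HDAC1 (median -0.27), 2 and 12 of them in both. With the empty vector 13.0% were higher and 52.2% lower, beside 25.9% and 25.0% of all genes, and with HDAC1 8.7% and 60.9%, beside 24.9% and 24.2%. With the heart and brain level in the fit 2 rose and 10 fell with the empty vector and 2 rose and 13 fell with HDAC1. The shares of all genes in that fit are not given here. Nqo1, a quinone reductase often used as the marker of NRF2 activity, went from 269 ± 4.10 to 159 ± 4.71 CPM (SD, n = 3) in empty vector cells (-0.76) and from 352 ± 47.1 to 187 ± 15.8 CPM with HDAC1 (-0.91, edgeR adjusted p = 8.87e-09). Ephx1, an epoxide hydrolase, went from 11.1 ± 1.53 to 2.13 ± 0.25 CPM (-2.38) and Mgst1, a membrane glutathione transferase, from 121 ± 12.4 to 51.3 ± 6.30 CPM (-1.24). Fth1, the ferritin heavy chain that stores the iron released by haem oxygenase, went from 2053 ± 84.5 to 1045 ± 95.5 CPM (-0.97) with the empty vector and from 1967 ± 126 to 1051 ± 56.1 CPM (-0.90) with HDAC1. Ferritin genes have near-identical copies that can share reads, so their values are uncertain. Against this direction Ugdh, which makes UDP-glucuronate, rose by 0.58 and 0.66.

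HDAC1 in vehicle called 7 of these 23 targets, 3 higher and 4 lower, beside 14.0% of all genes. With TGFB1 edgeR called 0, beside 6.53% of all genes. There 7 were at an unadjusted p under 0.05 and DESeq2 called 3, and the shares of all genes under those rules are not given here. Nqo1 rose by 0.39 ± 0.08 (SE, edgeR adjusted p = 0.00212) and Ftl1, the ferritin light chain, by 0.27 ± 0.08 (0.0234). Mgst1 fell by 0.45 ± 0.09 (0.00158) and Ephx1 by 0.48 ± 0.15 (0.0310). The count in vehicle fell to 3 (2 higher and 1 lower) without the empty vector library low in heart and brain transcripts, and also with that level in the fit. Nqo1 (0.40 and 0.42), Ftl1 (0.31 and 0.32) and Mgst1 (-0.43 and -0.43) were the 3 called in each of these fits, and Ephx1 stood at -0.38 and -0.42 (edgeR adjusted p = 0.169 and 0.0900). Leaving out empty vector replicate 2 or 3 left 4, and leaving out HDAC1 replicate 1 or 3 left 2 and 3. Over all genes this comparison called 2038 in the main fit and 1144 to 2166 with 1 library left out. The 1144 came without HDAC1 replicate 1, so calls were lost there over all genes too. Under TGFB1 Nqo1 stood at 0.24 on the log2 scale (edgeR adjusted p = 0.0815) and Mgst1 at -0.05 (0.776), and the interaction did not call the difference for either (0.616 and 0.163).

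**Figure D4:**
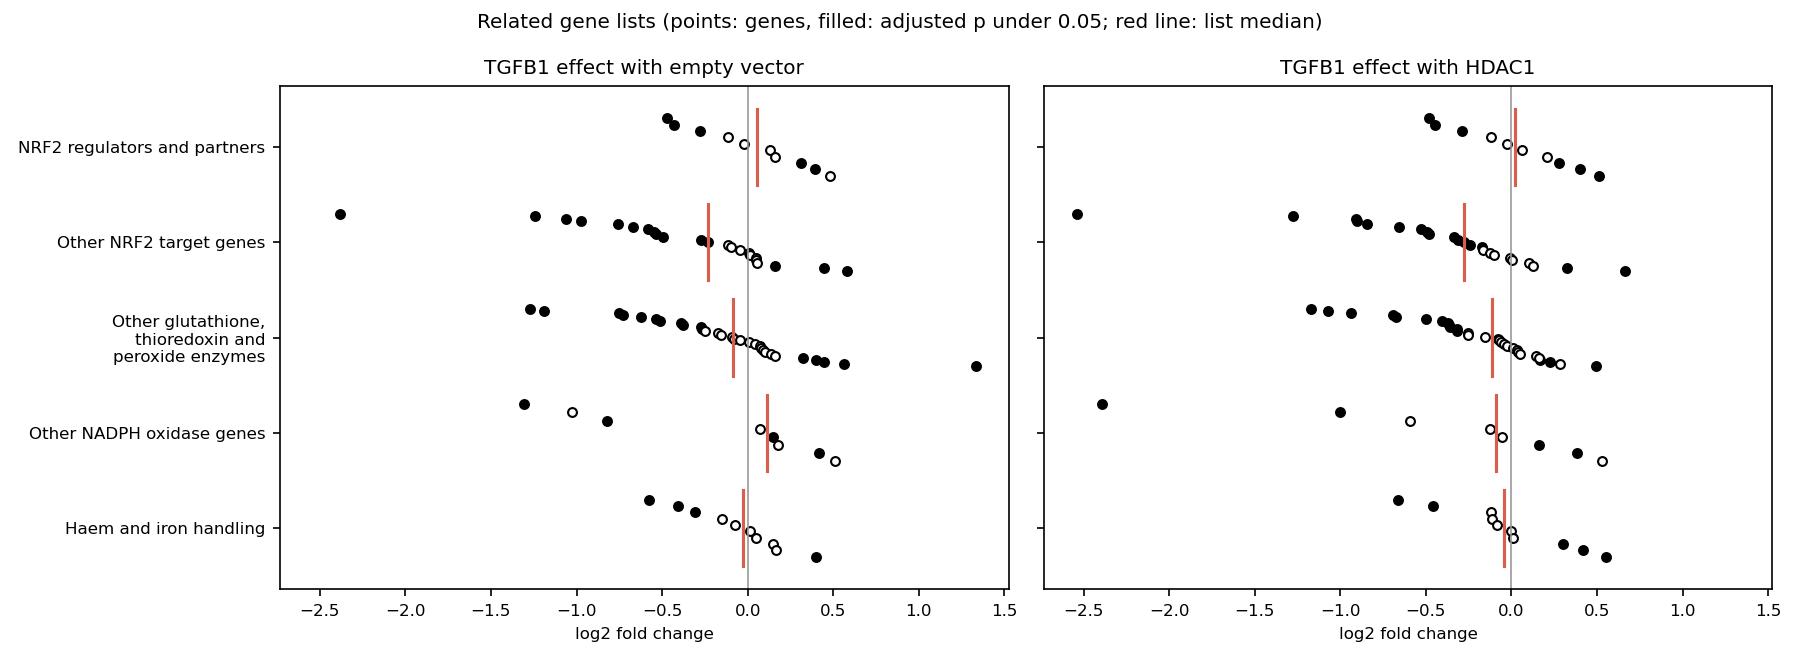
Log2 fold changes by TGFB1 (x axis) of the tested genes of 5 related lists (y axis), with the empty vector on the left and HDAC1 on the right. Points are genes, filled where called, and the red line is the list median, which is -0.23 and -0.27 for the other NRF2 targets.

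Of 30 tested enzymes that handle peroxide, glutathione and thioredoxin, 5 rose and 11 fell by TGFB1 with the empty vector (median -0.09), and 3 rose and 12 fell with HDAC1 (median -0.12), 2 and 10 of them in both. The 16 of 30 and 15 of 30 called lie near the 50.9% and 49.1% of all genes. With the empty vector 16.7% were higher and 36.7% lower, beside 25.9% and 25.0% of all genes. With HDAC1 10% were higher and 40% lower, beside 24.9% and 24.2%. The genes with the smallest adjusted p, named here, all fell. Catalase (Cat), which splits hydrogen peroxide, went from 126 ± 7.79 to 52.1 ± 5.81 CPM (SD, n = 3) in empty vector cells (-1.27) and from 119 ± 7.98 to 56.7 ± 4.25 CPM with HDAC1 (-1.07). Sod3, the extracellular superoxide dismutase, fell by 0.73 and 0.94, Glrx, a glutaredoxin, by 1.19 and 1.17, and Txnip, which binds thioredoxin, by 0.75 and 0.68. HDAC1 called 2 of 30 in vehicle, 6.67% beside 14.0% of all genes, and 2 of 30 with TGFB1, 6.67% beside 6.53%. In vehicle Chac1, which degrades glutathione, rose by 0.54 ± 0.11 (SE, edgeR adjusted p = 0.00229) and Msrb3, a methionine sulfoxide reductase, fell by 0.26 ± 0.08 (0.0257). Without empty vector replicate 1 Chac1 stood at 0.63 and was called, while Msrb3 stood at -0.20 (edgeR adjusted p = 0.166) and was not, nor with the heart and brain level in the fit (-0.21). With TGFB1 Prdx5, a peroxiredoxin, was at 412 ± 90.3 CPM with the empty vector and 276 ± 5.13 CPM with HDAC1 (-0.58 ± 0.10 SE, edgeR adjusted p = 0.00399), and Txnip rose by 0.24 ± 0.07 (0.0482). With the heart and brain level in the fit 0 of 30 were called under TGFB1 (Prdx5 -0.55 and Txnip 0.19), and without empty vector replicate 1 or 3, or HDAC1 replicate 1 or 3, 1 of 30.

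Among the other NADPH oxidase genes, 8 of 14 were tested, and 2 rose and 2 fell with either vector, 4 of 8 beside 50.9% and 49.1% of all genes, which is near that share. Those that rose were Poldip2, a partner of NOX4 (0.42 and 0.38), and Rac1, a GTPase used by other oxidases (0.15 and 0.16). Those that fell were scarce. Cybb, the catalytic subunit of the phagocyte oxidase, was at 2.39 ± 0.05 and 1.35 ± 0.21 CPM with the empty vector (-0.82, a 1.77-fold fall). With HDAC1 Cybb was at 1.77 ± 0.51 and 0.89 ± 0.32 CPM (a 2.00-fold fall). Duox1 was at 0.92 ± 0.37 and 0.36 ± 0.08 CPM with the empty vector (-1.31). With HDAC1 it changed by -2.39, where its TGFB1 libraries held 2 to 5 counts and its vehicle libraries 20 to 35. With the empty vector the calls of Rac1 (0.15) and Duox1 (-0.99) ended without vehicle replicate 1, and with the heart and brain level in the fit (0.15 and -0.91), which also ended that of Rac1 with HDAC1 (0.16). edgeR called 0 of these 8 for HDAC1 in either treatment, beside 14.0% and 6.53% of all genes. At an unadjusted p under 0.05 there were 1 in vehicle and 2 with TGFB1, and the share of all genes at that p is not given here.

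Of 10 genes of haem and iron handling, TGFB1 raised 1 and lowered 3 with the empty vector and raised 3 and lowered 2 with HDAC1, 4 of 10 and 5 of 10 beside 50.9% and 49.1% of all genes. Fech, which inserts iron into haem, fell by 0.58 and 0.66, and Slc48a1, a haem transporter, by 0.41 and 0.46, while the iron transporter Slc11a2 rose by 0.40 and 0.42. Tfrc, the transferrin receptor that imports iron, rose with HDAC1 in both treatments, from 78.4 ± 4.50 to 123 ± 13.1 CPM (SD, n = 3) in vehicle (0.65 ± 0.09 SE, edgeR adjusted p = 8.05e-05) and from 63.2 ± 8.22 to 123 ± 9.53 CPM with TGFB1 (0.95 ± 0.09, 1.41e-05). It was the 1 gene of the list called for HDAC1 in either treatment, 1 of 10 beside 14.0% and 6.53% of all genes. It stood at 0.61 in vehicle without empty vector replicate 1, and at 0.65 and 0.95 with the heart and brain level in the fit, and was called each time.

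Over the 12 libraries the genes most like Nfe2l2 were Dstn, Cav2 and Prkar2b, by the Pearson correlation of log2 CPM among 10221 genes (r = 0.996, 0.991 and 0.986). For Hmox1 they were Ralgps2, Esm1 and Cd59b (0.967, 0.962 and 0.959), and for Nox4 they were Nod2, Septin6 and Axin2 (0.982, 0.982 and 0.981). The libraries share 4 groups, and no p is given. Among the 10 genes themselves the replicate SD was between 1.73% and 30.5% of the mean, with a median of 6.03% over the 40 group values.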

How the data were processed

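Poly(A) RNA of 12 libraries was sequenced. Per the submitters' processing notes, the tools were Trim Galore 0.6.7 for trimming, featureCounts of Subread 2.0.1 for counting, and DESeq2 1.44. The notes name mm10, a mouse build, although the deposited gene IDs are rat Ensembl genes. The aligner is not given in the sources used here. The authors deposited raw counts of 43360 genes and a table of normalized signal for 14275 genes, whose columns are the raw counts divided by 1 size factor per library, as checked on the values. That table gave the symbols.

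Groups were taken from the titles, since the treatment field numbers the cytokine's name from 1 to 6 and the series' design text describes all cells as treated. Raw counts were filtered with filterByExpr, scaled by TMM and fitted with the robust quasi-likelihood model of edgeR 4.0.16 (R 4.3.3) with 1 mean per group and 8 residual degrees of freedom. Tests were two-sided with Benjamini-Hochberg adjustment over 14601 genes, and SE is the log2 fold change divided by the square root of F. Intervals of 95% use the fit's degrees of freedom. The steps were tested on simulated data. Alternatives were DESeq2 size factors, the DESeq2 1.42.0 test, 2 other filters, a replicate block, a fit to only those libraries being compared, the summed heart and brain transcripts as a covariate, and leaving out each library.

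The genes and lists were chosen with earlier results of these data known. The 10 genes are named in every comparison, and from each related list up to 4 called genes with the smallest adjusted p per comparison, with their values in the other comparisons beside them. Correlates of Nfe2l2, Hmox1 and Nox4 were the 3 highest among genes with a mean log2 CPM of at least 2. Promoter windows came from RefSeq (GRCr8), and Hmox1 was not matched in that table.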

Additional observations from a re-analysis of the deposited data

How the results depend on the processing

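Of the single-gene values of the 10 genes, 124 of 130 kept direction and side of the threshold for TGFB1 with the empty vector, 125 of 130 for TGFB1 with HDAC1, 115 of 130 for each HDAC1 comparison and 163 of 180 for the interaction. The cause was not tested where values moved. HDAC1 with TGFB1 called 1 of the 10 genes with DESeq2 size factors and 0 with the heart and brain covariate, which left 102 genes of 954 called. The interaction called 275 genes with DESeq2, 479 with no filter and 0 with the covariate, against 70. Where the sign changed, the new value was at most 0.12 in size, for Nox4 with HDAC1 in vehicle. For Nox4 in vehicle HDAC1 gave 0.0030 with DESeq2 size factors, 0.0060 with DESeq2, 0.0011 with no filter, 0.016 with a mean CPM of at least 1, 0.11 with the covariate and 0.0063 with the groups compared alone. The interaction for Gclc was 0.0013 with DESeq2 size factors and 0.0012 with DESeq2. With the covariate Gclc was at -0.011 for HDAC1 with TGFB1, Gclm at 0.0061 for TGFB1 with the empty vector, and the Hmox1 interaction at -0.014.

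Leaving out 1 library at a time gave 6633 to 7263 genes and 7 to 8 of the 10 for TGFB1 with the empty vector, and 6210 to 6698 genes and 7 to 9 of the 10 with HDAC1. HDAC1 called 1144 to 2166 genes and 1 to 2 of the 10 in vehicle, and 237 to 1236 genes and 0 to 2 of the 10 with TGFB1, where the lowest count of genes came without HDAC1 replicate 1. The interaction called 3 to 257 genes, with 3 when HDAC1 TGFB1 replicate 3 was left out. In vehicle the HDAC1 effect ran from -0.019 to 0.42 for Hmox1, -0.20 to 0.015 for Srxn1 and -0.15 to 0.12 for Nox4, and with TGFB1 from -0.016 to 0.18 for Gclm. The interaction ran from -0.028 to 0.061 for Nfe2l2, -0.053 to 0.41 for Hmox1, -0.034 to 0.023 for Gclc, -0.19 to 0.0070 for Gclm, -0.17 to 0.046 for Slc7a11 and -0.24 to 0.027 for Nox4.

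The labels do not say whether libraries with the same replicate number belong together. Over 18 pairs the correlation of deviations ran from -0.363 to 0.368, with 4 over 0.1 and 7 best with their own number. Between the 2 HDAC1 groups it was 0.240, 0.368 and 0.0421, each best with its own number, a hint from the data, while in no set of 3 pairs were all over 0.1. With the replicate block HDAC1 with TGFB1 called 1 of the 10 genes, since Keap1 stood at -0.30 (edgeR adjusted p = 0.0675). Low counts limit Nox4 most, at 40 to 127 in a library.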
